A study of Macaca mulatta with 20 samples.

Results

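Gene expression in whole blood of rhesus macaques 30 days after irradiation of the thorax was compared with that at 2 days, to describe how the late blood transcriptome differed from the acute one. Of the 20 arrays in the series, 10 entered the comparison: 5 at day 2 (Day 2_rep1 to Day 2_rep5) and 5 at day 30 (Day 30_rep1 to Day 30_rep5), joined by replicate number. Both groups had received 10 Gy of X-rays to the thoracic region, so no unirradiated animal is part of the contrast; the 5 arrays from before irradiation and the 5 from day 5 are given as levels for orientation. The macaques were males of Chinese origin according to the methods, and the labels give no age for a sample. RNA came from stabilised whole blood after depletion of globin transcripts, and it was hybridised to a human array, which limits the measurement to macaque transcripts that bind human probes. The animals numbered 8, and the methods pair samples by animal but state that 1 sample was pooled from 2 animals, which the labels do not identify. The labels do not tie a replicate number to an animal either. The p-values therefore describe the spread between 5 pairs of equal number.

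Whole blood RNA is a mixture from neutrophils, lymphocytes, monocytes, platelets and red cell precursors. Natural killer (NK) cells and cytotoxic T cells recognise target cells through lectin-like receptors of the KLR family and kill them with granzymes, proteases that enter through pores made by perforin. C1q, assembled from the products of C1QA, C1QB and C1QC, starts the classical complement pathway and is made mainly by macrophages and monocytes. Platelets carry RNA of adhesion receptors and granule proteins from the megakaryocytes that shed them. Radiation activates p53, which turns on genes of cell cycle arrest and cell death, and lymphocytes are among the radiosensitive cells of blood. In bulk samples, fewer cells of a type and less RNA per cell cannot be told apart.

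Signals are given as log2 of the processed spot intensity minus the 75th percentile of the same array, so that 0 is the level of a fairly bright probe and 1 unit is a 2-fold step. Of 34127 probes, 19961 were bright enough to test (well above background on at least 5 of the 20 arrays). On the 10 arrays, between 54.7% and 58.8% of spots were well above background, with a median signal 1.77 to 2.42 times the background. Markers of the main cell types in blood (PTPRC, CD3E, CD79A, CD14, CSF3R, ITGA2B and ALAS2) were well above background on all 10 arrays. Of 3 genes that blood cells are not known to express, SFTPC and ALB were well above background on 0 of the 10 arrays, but INS, the insulin gene, was on 9, so a probe above background on this human array is not by itself a sign of its gene. The arrays lie on 5 slides of 4, and each slide holds 1 array of every time point, always at the same position for a time point; slide position and time point cannot be told apart. A probe is called here when its paired limma test gave p under 0.005 and a false discovery rate (FDR) under 10%, the thresholds of the study.

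The called probes read lectin-like receptors, a granzyme, a chemokine receptor, SPATA9 and complement C1q, and 3 of them are printed to show which transcripts carried the main differences. Each is 60 bases long, is written 5′ to 3′ in lower case, and lies in 1 unbroken stretch of the human genome (build hg19, array annotation). The first is a receptor of NK and T cells, the second a granzyme, and the third a chain of C1q. The probes of KLRB1, KLRC1, KLRC3, KLRC4, KLRD1 and KLRK1 share runs of at most 8 bases with each other. Even the probes of the same gene, KLRD1, share a run of only 5 bases, so short runs do not separate genes. The probes were not compared with KLR transcripts. Whether a probe also binds the transcript of a related KLR gene was therefore not tested.
KLRB1 (chr12:9751115-9751174, minus strand): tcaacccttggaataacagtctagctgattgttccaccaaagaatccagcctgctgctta
GZMK (chr5:54329648-54329707, plus strand): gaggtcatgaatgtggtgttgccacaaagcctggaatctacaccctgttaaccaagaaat
C1QB (chr1:22987795-22987854, plus strand): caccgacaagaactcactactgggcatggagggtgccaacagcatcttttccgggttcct

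From day 2 to day 30, 8 probes of 7 genes rose and 2 probes fell. The genes that rose were KLRB1, KLRC1, KLRC4, KLRD1, CXCR6, GZMK and SPATA9, by 2.36-fold to 4.89-fold. C1QA and C1QB fell, by 5.57-fold and 4.64-fold. These are 0.0401% and 0.0100% of the probes tested, each with an FDR of 0.0906 by limma, close under the limit of 10%. The calls rested on that limit: none of the 10 was called without replicate 1, 3, 4 or 5, with slides as a block or with no filter on dim probes, and 3 were without the replicate block, although all 10 were at p under 0.005 in each of these settings. All 10 were called again without replicate 2. At an unadjusted p under 0.005 alone there were 105 probes higher (0.526%) and 187 lower (0.937%), against 99.8 in all if no probe differed, and 2560 probes lay under 0.05. The share of lower probes among these 292 was 64.0%, and it depended on the scaling: 57.2% after quantile normalisation, 51.7% with arrays centred on the median, and 39.0% after normexp background correction. Of the 105 probes on the higher side, 103 were higher in all 5 pairs, with a median difference of 1.03 log2 units. Of the 187 on the lower side, 178 were lower in all 5 pairs, with a median difference of -1.10. Over all genes, with 1 probe each, 7.57% were higher and 6.72% lower in all 5 pairs. Probes selected by a paired test of these same pairs mostly go 1 way and differ widely, so the counts of 103 and 178 are no separate support. The plot of difference against p shows how few probes lie apart from the bulk.

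**Figure D1:**
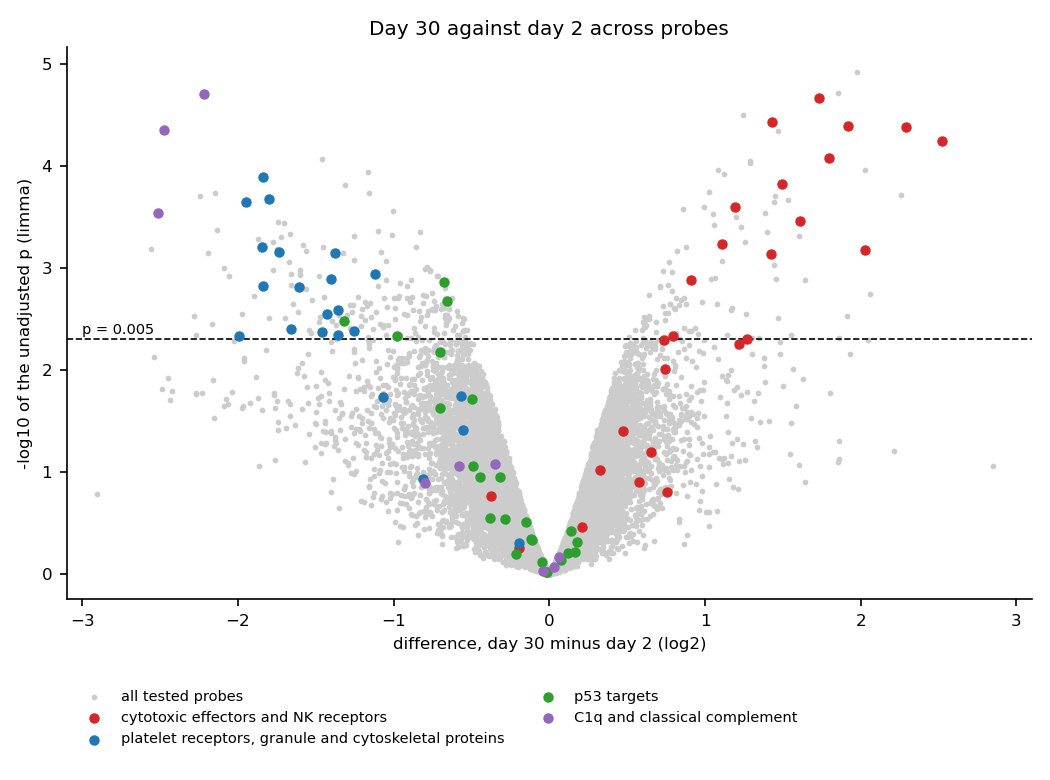
Each point is 1 of the probes tested, with the log2 difference, day 30 minus day 2, on the x axis and −log10 of the limma p on the y axis; the dashed line marks the unadjusted threshold of the study. Cytotoxic and NK receptor genes lie to the right, platelet and C1q genes to the left, and p53 targets lie mostly slightly left of 0.

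KLRB1, which encodes the lectin-like receptor CD161 of NK cells and memory T cells, showed the largest rise among the called probes. Its log2 signal at day 2 was -1.90, -1.38, -1.92, -1.32 and -0.69 in replicates 1 to 5, and at day 30 it was 0.56, -0.24, 0.93, 1.40 and 1.60. The day 30 arrays all lay above the day 2 arrays. The rise was 2.29 log2 units (SE 0.26, 5 pairs, limma FDR 0.0906), or 4.89-fold. The mean before irradiation was 0.24 and at day 5 it was -0.14, so the day 2 mean of -1.44 was the lowest of the 4 time points and the day 30 mean of 0.85 the highest.

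KLRC4, a gene of the NKG2 receptor cluster, read -1.44, -0.81, -1.39, -0.76 and -1.97 at day 2 and 0.47, 0.54, 0.67, 1.32 and 0.52 at day 30. The groups were apart, with every day 30 array above 0 and every day 2 array below it, and the rise was 1.98 log2 units (SE 0.19, FDR 0.0906). KLRC1, which encodes the inhibitory receptor NKG2A, read -4.16, -3.61, -3.82, -3.62 and -5.03 at day 2 and -2.44, -2.17, -2.51, -1.71 and -2.75 at day 30. It was a dim probe, well above background on 2 of 5 day 2 arrays and on 5 of 5 day 30 arrays, and it rose by 1.73 log2 units (SE 0.18). KLRD1 encodes CD94, the partner chain of NKG2 receptors on the cell surface. Its brighter probe read -0.25, -0.83, -1.32, -0.79 and -1.88 at day 2 and 1.13, 0.11, 0.23, 0.78 and -0.15 at day 30. The lowest day 30 array stood just above the highest day 2 array, and the rise was 1.43 log2 units (SE 0.16). A second KLRD1 probe rose by 1.47 (SE 0.17), although its groups overlapped. Before irradiation the means of KLRC4, KLRC1 and the brighter KLRD1 probe were 0.47, -2.33 and 0.55.

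GZMK, a granzyme of memory CD8 T cells and some NK cells, read 1.14, 1.26, 1.05, 0.56 and 0.83 at day 2. At day 30 it read 2.65, 2.50, 3.48, 2.58 and 3.23. The lowest day 30 array was above the highest day 2 array by more than the range of the day 2 group, and the rise was 1.92 log2 units (SE 0.22, 3.78-fold). The means before irradiation and at day 5 were 1.97 and 1.57, both between those of day 2 and day 30. CXCR6, a chemokine receptor of tissue-homing T and NK cells, read -3.02, -3.01, -3.18, -3.44 and -3.41 at day 2 and -1.70, -2.06, -1.80, -2.21 and -2.09 at day 30. Its groups were also apart, with a rise of 1.24 log2 units (SE 0.13) and a mean of -2.02 before irradiation. SPATA9, a gene known mainly from testis, rose by 1.86 log2 units (SE 0.19) from a very low level. It read -3.73, -5.12, -5.86, -5.64 and -6.08 at day 2 and -2.42, -3.40, -4.15, -3.25 and -3.93 at day 30, and it was well above background on 1 of 5 day 2 arrays and 4 of 5 day 30 arrays. Its groups overlapped, and 4 of its 5 day 2 values were not well above background.

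**Figure D2:**
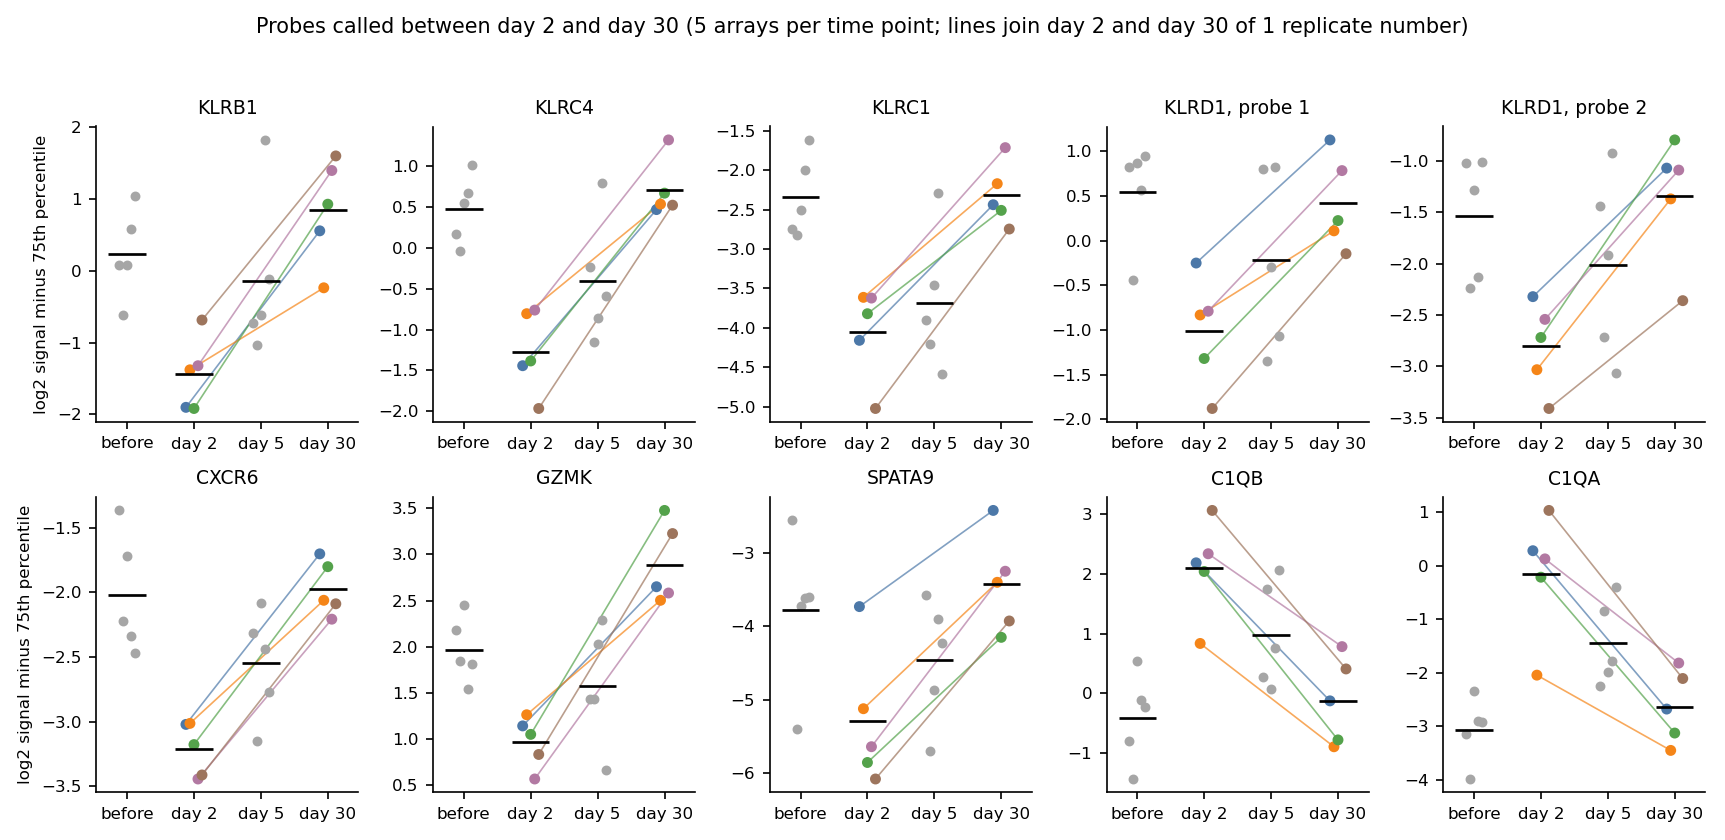
The log2 signal of the 10 called probes is plotted for each array before irradiation and at days 2, 5 and 30; bars are means, and lines join day 2 and day 30 of 1 replicate number. All lines of the KLR, CXCR6, GZMK and SPATA9 probes go up and all lines of C1QA and C1QB go down.

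C1QB fell in each of the 5 pairs. It read 2.19, 0.84, 2.04, 2.34 and 3.06 at day 2 and -0.13, -0.90, -0.78, 0.78 and 0.41 at day 30. The groups did not overlap, but the highest day 30 array came close to the lowest day 2 array. The mean went from 2.09 ± 0.81 (SD, n = 5) to -0.12 ± 0.73 (SD, n = 5), a fall of 2.22 log2 units (SE 0.22). C1QA read 0.28, -2.05, -0.21, 0.13 and 1.04 at day 2 and -2.68, -3.46, -3.13, -1.82 and -2.11 at day 30. One day 2 array lay among the day 30 arrays, and the fall was 2.48 log2 units (SE 0.28). Before irradiation the means of C1QB and C1QA were -0.41 and -3.07, and at day 5 they were 0.98 and -1.45, between those of day 2 and day 30. C1QC was well above background on 3 of 5 day 2 arrays and on none at day 30 or before irradiation, so its level at day 30 has only an upper limit. For a fold, each day 30 value was raised to at least the dimmest probe still well above background on its array. C1QC was then 2.01-fold lower at day 30 (limma FDR of the unraised values 0.152, not called). The day 2 mean was taken as read although it includes arrays not well above background, so 2.01-fold is not a strict lower bound.

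The called values of dim probes depended on the background correction. Normexp with an offset of 50, which by construction pulls dim values together, gave 1.88 log2 units for GZMK, 1.27 for KLRB1, 1.12 for KLRC4 and 0.73 and 0.47 for the KLRD1 probes. It gave 0.18 for KLRC1, 0.16 for CXCR6 and 0.03 for SPATA9, and -1.24 for C1QA and -1.5 for C1QB. All 10 kept their direction, 6 were at p under 0.005 and 1 passed the FDR limit.

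Of the 9 genes of C1q and the classical pathway that could be tested, the 3 C1q chains were those at p under 0.005, and 4 were lower in all 5 pairs. The median difference over the list was -0.58 log2 units, against 0.005 over all genes. It was -0.29 after normexp and -1.51 over the 4 genes whose probes were well above background on all 20 arrays. The summed signal of the list ranged from 1.71 to 3.53 log2 units at day 2 and from 0.41 to 1.46 at day 30. These ranges did not overlap. Such a sum is set mostly by the brightest probe, here the called C1QB. Its day 2 mean was 2.09, against 2.72 for the summed list, so the sum is not a result separate from that probe. For monocyte markers the median difference over 13 genes was -0.10, none passed p under 0.005, and the summed signal ranged from 7.56 to 8.45 at day 2 and from 7.52 to 8.47 at day 30. Over 8 macrophage scavenger and surface genes the median was -0.02; STAB1 was lower by 0.86 (SE 0.34) and OLR1 higher by 1.80 (SE 0.58), neither past p under 0.005. Over 11 complement receptor and regulator genes the median was -0.01.

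Other killer genes were higher at day 30 without passing the FDR limit. At the level of genes, with 1 probe each, 0.540% of 15923 genes tested were higher at p under 0.005 and 1.0% lower, 7.57% were higher in all 5 pairs and 6.72% lower in all 5. Groups without overlap made up 1.0% of genes on the higher side and 0.955% on the lower. Against this, 8 of 15 cytotoxic granule and effector genes were higher at p under 0.005 (GZMK, GZMA, FASLG, EOMES, GZMB, GZMH, GNLY and PRF1) and none was lower. In all 5 pairs 12 of the 15 were higher, and in 7 the groups did not overlap. The median difference was 1.20 log2 units (SD over the 5 pairs 0.31). It ranged from 0.90 to 1.56 between pairs.

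GZMA, a granzyme with trypsin-like activity, showed the largest difference of the list. It read -2.98, -1.29, -3.05, -2.24 and -2.85 at day 2 and -1.39, 0.53, 0.05, 0.38 and 0.63 at day 30. It was higher in all 5 pairs by a mean of 2.52 log2 units (limma FDR 0.103), just past the limit. The day 30 array of replicate 1 stood below the other 4 and just below the highest day 2 array. GZMB, which activates caspases in target cells, read 5.46, 4.83, 4.96, 4.77 and 3.87 at day 2 and 6.33, 6.08, 6.27, 7.05 and 6.21 at day 30. Its groups were apart, with a difference of 1.61 (limma FDR 0.167). GZMH read 5.22, 4.88, 4.73, 4.26 and 2.52 at day 2 and 6.24, 6.32, 6.23, 7.21 and 5.74 at day 30, a difference of 2.03 (limma FDR 0.196). Replicate 5 was the lowest of its group at day 2 for both of these granzymes.

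The standard errors of the 8 genes at p under 0.005 ranged from 0.18 to 0.35 log2 units. With slide and replicate block together, 5 of the 15 were at p under 0.005. That fit left the median difference unchanged but had fewer residual degrees of freedom than the 4 of the reported fit. A lower count in it, here or in the lists below, is therefore not by itself a sign of a slide effect. The death ligand gene FASLG was higher by 1.80 log2 units (limma FDR 0.126), and EOMES, a transcription factor of effector lymphocytes, by 1.20. GNLY, which encodes the pore-forming granulysin, was higher by 1.42 and PRF1, which encodes perforin, by 0.91. NKG7 and TBX21, the latter encoding T-bet, were higher by 1.22 and 0.74 and missed p under 0.005 narrowly. CCL5, a chemokine stored in the granules of the same cells, differed by -0.02 and was the only member with a value below 0.

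The 12 NK receptor genes had a median difference of 0.95 log2 units (SD over pairs 0.34), and 7 were higher at p under 0.005 with none lower. Besides the called KLRB1, KLRC1 and KLRD1 these were KLRF1 at 1.5, KLRC3 at 1.27, KLRK1, which encodes the activating receptor NKG2D, at 1.11, and IL2RB, a chain of the interleukin 2 and 15 receptors, at 0.80. KLRC3 was dim at day 2, well above background on 1 of 5 arrays. In 6 of the 12 the groups did not overlap. The receptor genes NCR3 and CD226 had values of -0.20 and -0.37, so not all members were on the higher side. The standard errors of the 7 genes at p under 0.005 ranged from 0.16 to 0.32. After normexp 3 of the 12 genes were at p under 0.005 and the median was 0.14, and with slide and replicate block together 4 were. Summed over each list, the signal of the cytotoxic genes ranged from 5.53 to 6.92 log2 units at day 2 and from 7.62 to 8.53 at day 30, with 7.10 to 8.19 before irradiation. For the NK receptors the ranges were 1.43 to 2.08 at day 2 and 2.44 to 3.19 at day 30. By these sums, set mostly by the brightest probes, each day 30 array lay above each day 2 array in both lists.

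**Figure D3:**
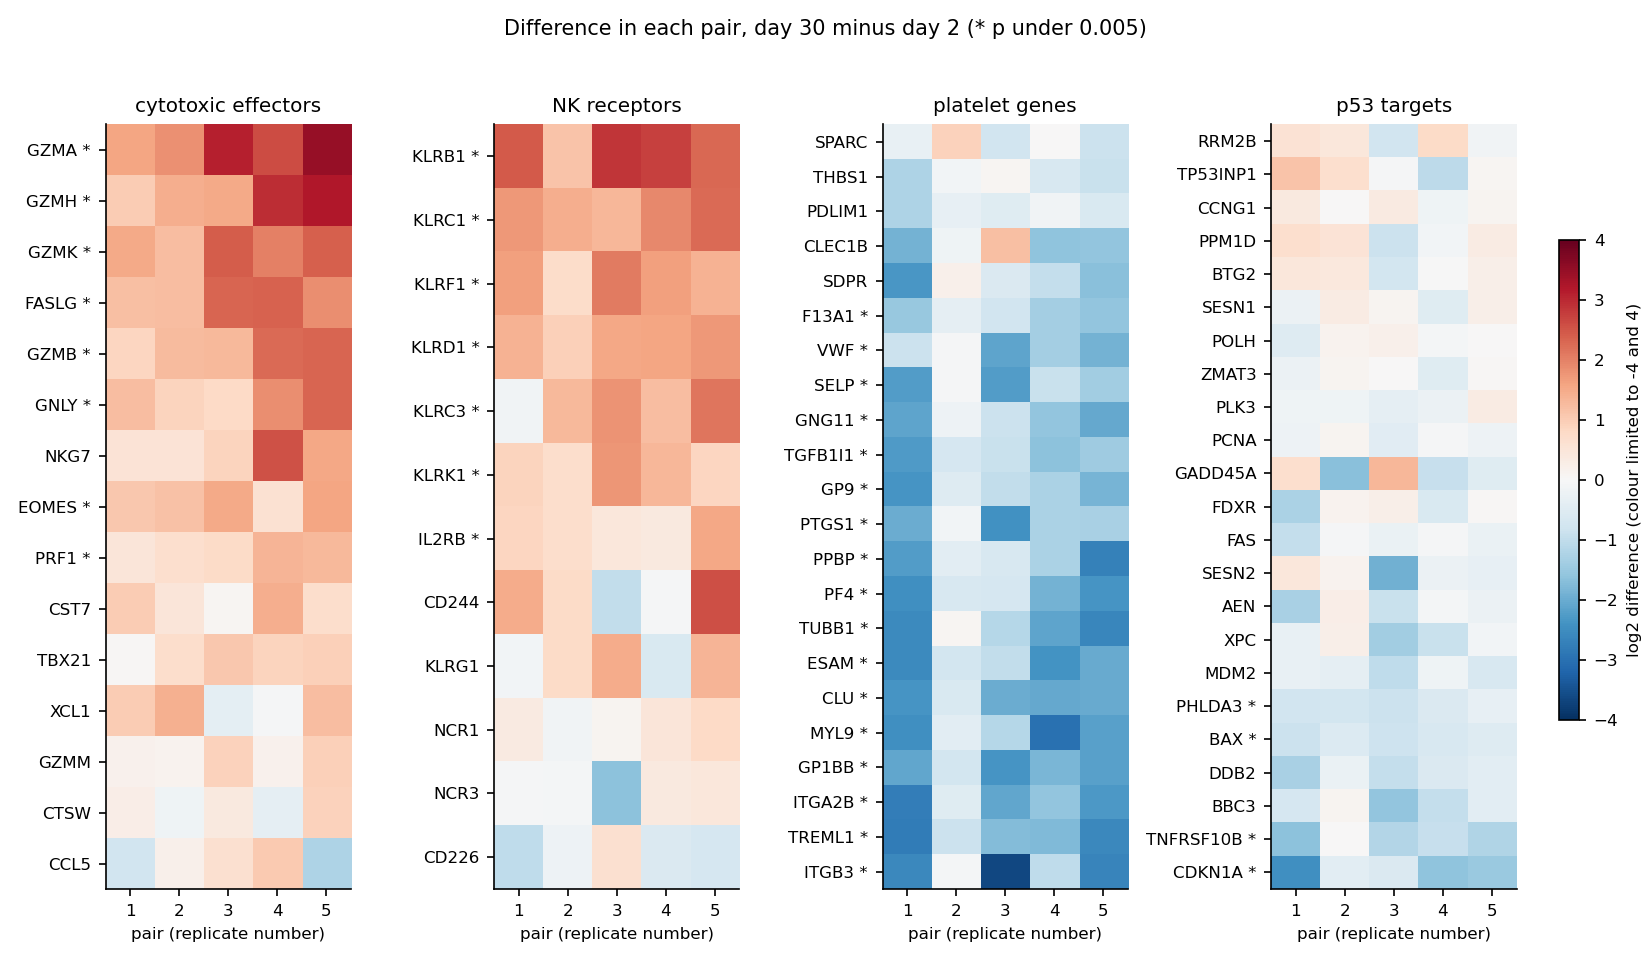
Differences, day 30 minus day 2, are shown as colour for every pair and tested gene of the cytotoxic, NK receptor, platelet and p53 lists (log2 units, colour limited to ±4; an asterisk marks p under 0.005). Cytotoxic and NK genes are higher in nearly all pairs, platelet genes lower except that pair 2 is pale, and p53 genes are mostly slightly lower.

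Genes of T cells in general were close to balanced between the days. Over 21 T cell receptor and identity genes the median difference was 0.06 log2 units, and none passed p under 0.005. CD8A was higher in all 5 pairs by 0.65 (SE 0.17), while CD4 was lower in all 5 (value -0.56, SE 0.17) and CD3E lower in all 5 (value -0.45, SE 0.16). Which cells carried the CD8A signal was not tested. The summed signal of the list ranged from 7.31 to 7.98 at day 2 and from 7.19 to 7.95 at day 30. Naive T cell genes had a median of -0.12 over 10 genes, and the GIMAP genes, which encode GTPases of lymphocytes, -0.00 over 5. Of 19 B cell genes none passed p under 0.005 and the median was 0.27 (SD over pairs 0.48). CD72, an inhibitory receptor of B cells, had a value of -0.92 (lower in all 5 pairs) and EBF1, a B cell transcription factor, a value of 0.60 (higher in all 5 pairs). Plasma cell genes had a median of -0.03 over 9 genes.

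Among 10 chemokine and lipid receptor genes of leukocyte migration, 2 were higher at p under 0.005 and 1 of them, CXCR6, was called. CX3CR1, carried by cytotoxic lymphocytes and patrolling monocytes, was higher in all 5 pairs by 0.45 (SE 0.14) without passing. The median of the list was 0.28, and 3 of the 10 were higher in all 5 pairs.

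Platelet genes were lower at day 30 than at day 2, with no probe reaching the FDR limit. Of 8 platelet receptor genes, 7 were lower at p under 0.005: GP1BB (-1.84) and GP9 (-1.40), parts of the receptor for von Willebrand factor, ITGA2B (-1.84) and ITGB3 (-1.99), the 2 chains of the fibrinogen receptor, SELP (-1.36), which encodes P-selectin, and TREML1 (-1.95) and ESAM (-1.74). Those 7 were lower in all 5 pairs. CLEC1B, which encodes the receptor CLEC-2, was lower in 4 of 5 pairs with a mean of -0.81. The median was -1.79 log2 units (SD over pairs 0.75), and it ranged from -2.47 to -0.50, the smallest size being that of pair 2. The standard errors of the 7 ranged from 0.25 to 0.49. In 3 of the 8 genes the groups did not overlap.

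Of 14 platelet granule and cytoskeletal genes, 10 were lower at p under 0.005, with a median of -1.37 log2 units (SD over pairs 0.76) and a range over pairs from -2.18 to -0.27. The median was -0.83 after normexp. They include the chemokines of alpha granules, PF4 (-1.61) and PPBP (-1.46), and further PTGS1 (-1.43), which makes the precursor of thromboxane, and TUBB1 (-1.66), the tubulin of the platelet's marginal band. CLU (-1.80), F13A1 (-1.12), VWF (-1.26), MYL9 (-1.84), GNG11 (-1.36) and TGFB1I1 (-1.38) make up the rest, and the standard errors of the 10 ranged from 0.21 to 0.40. How many passed rested on single replicates: without replicate 1, 4 or 5, 2 of the 14 were at p under 0.005, and without replicate 2, 11 were. After normexp 7 of the 14 were, and with slide and replicate block together 5. For the receptor list that count ranged from 4 to 7 when 1 replicate was left out. The summed signal of the receptors ranged from 5.52 to 7.55 at day 2 and from 4.10 to 5.36 at day 30, and that of the granule genes from 6.70 to 8.68 and from 6.01 to 6.47. By these sums, which are set mostly by the brightest probes, all day 30 arrays lay below all day 2 arrays. Gene by gene, the groups did not overlap in 3 of the 8 receptor genes and 3 of the 14 granule genes, against 0.955% of all genes. Before irradiation the summed ranges were 3.79 to 5.83 for receptors and 5.17 to 6.75 for granule genes. All day 30 arrays lay within them. For receptors the median difference from before irradiation was 1.43 at day 2 and -0.39 at day 30. For granule genes it was 1.28 at day 2 and 0.03 at day 30.

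**Figure D4:**
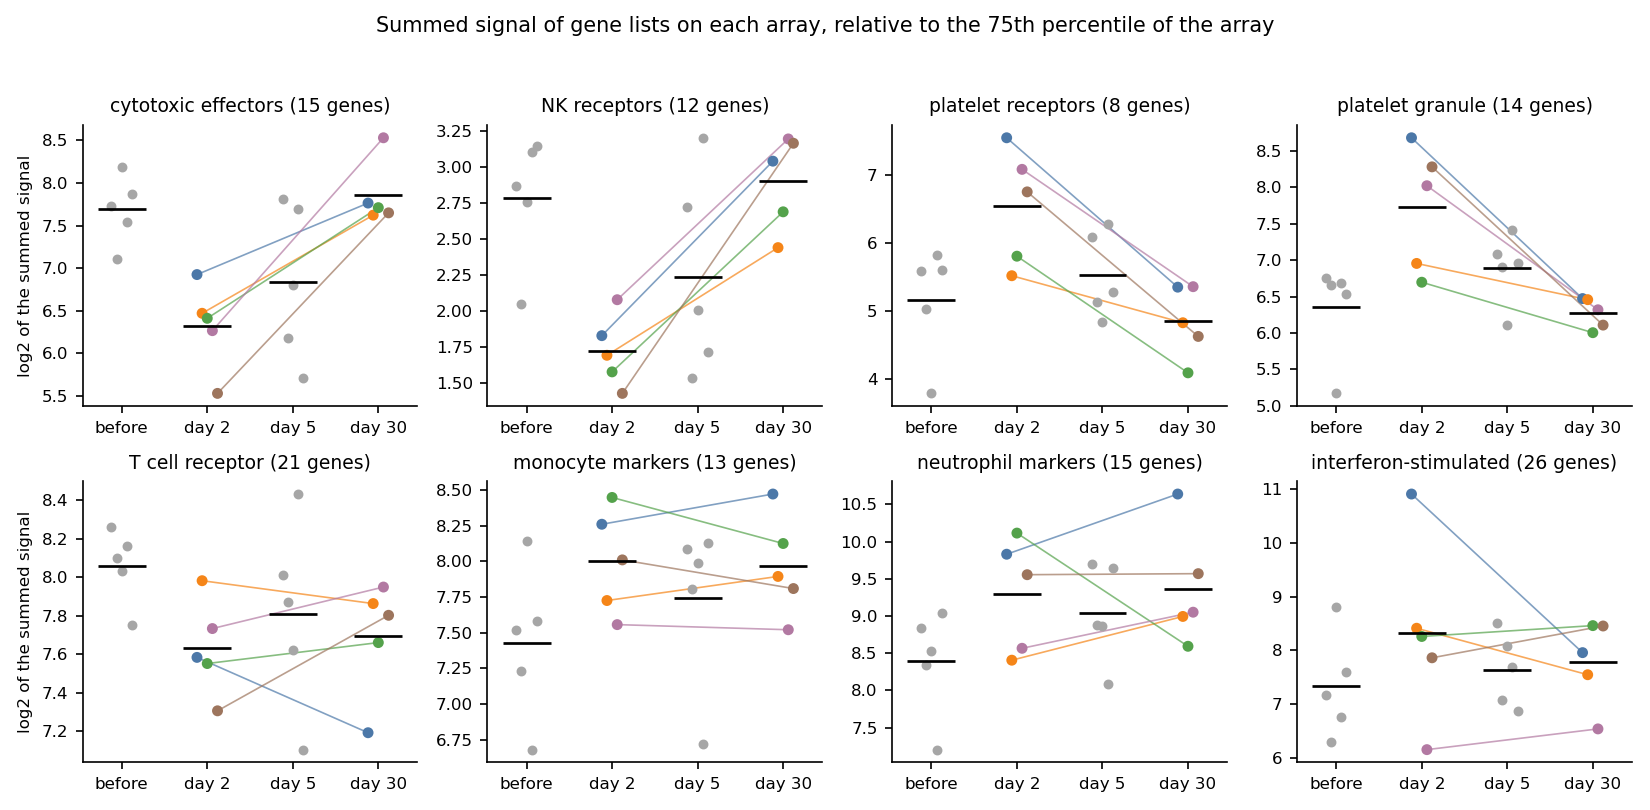
For 8 gene lists, the log2 summed signal of the genes is plotted for each array before irradiation and at days 2, 5 and 30. The cytotoxic and NK lists at day 30 lie above day 2 and both platelet lists below it without overlap, while T cell, monocyte, neutrophil and interferon-stimulated lists overlap.

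NRGN, which encodes the calmodulin-binding protein neurogranin, also found in platelets, was among the probes with the largest differences. It read 4.86, 3.29, 3.11, 4.39 and 4.39 at day 2 and 1.88, 2.45, 0.63, 2.53 and 1.82 at day 30. The groups were apart, with a difference of -2.15 log2 units (limma FDR 0.14). LY6G6F (-2.13), known from platelets and megakaryocytes, and TSPAN9 (-2.09), a tetraspanin of platelets, were of like size. The 15 largest on the lower side, among genes at p under 0.005 and lower in all 5 pairs, further held MYL5 (-2.56), PRTFDC1 (-2.28), CLPSL2 (-2.27), RAB6B (-2.19), DLK1 (-2.17), TUSC3 (-2.06) and CLEC4G (-1.98). They also held EHD3, 1.70-fold lower when computed as for C1QC. The probes of 2 of these genes disagreed in size: a second, brighter DLK1 probe differed by -0.18 (SE 0.25) and was lower in 3 of 5 pairs, and a second PRTFDC1 probe differed by -0.71 (SE 0.26). MYL5, PRTFDC1 and EHD3 were well above background on 1, 2 and 0 of 5 arrays at day 30. On the higher side the 15 largest, chosen likewise, held, besides killer genes, SAMD3 (2.26), ZNF516 (1.91), NUAK1 (1.64), C1orf21 (1.61) and CHN1 (1.55). WNT5A was also among them, 1.44-fold higher with its day 2 values raised in the same way. Its day 30 mean was taken as read, with 4 of 5 arrays well above background. SAMD3 and CHN1 were each well above background on 1 of 5 arrays at day 2 and WNT5A on none. The standard errors of the 15 ranged from 0.22 to 0.56 on the lower side and from 0.18 to 0.43 on the higher side.

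Targets of p53 had lower values at day 30, by smaller amounts. Of 23 genes tested, 18 had values below 0, and the median was -0.29 log2 units (SD over pairs 0.31). Pair 2 had a median of 0.10, and the other pairs ranged from -0.74 to -0.19. BAX, which permeabilises mitochondria in apoptosis, had a value of -0.68 (SE 0.13), PHLDA3, an inhibitor of the kinase AKT, of -0.66 (SE 0.14) and CDKN1A, which encodes the cell cycle inhibitor p21, of -1.32 (SE 0.31), each lower in all 5 pairs and at p under 0.005. CDKN1A was well above background on 5 of 5 arrays at day 2, 3 of 5 at day 30 and 2 of 5 before irradiation, so its difference includes values at the background. TNFRSF10B, a death receptor gene, was well above background on 4 of 5 day 2 arrays and none at day 30. Computed as for C1QC, it was 1.94-fold lower (limma FDR 0.335). No p53 target passed the FDR limit. None of the 23 was at p under 0.005 without replicate 1, without replicate 4, after normexp, or with slide and replicate block together, and 2 were without any other 1 replicate. Mean BAX before irradiation was 2.40, at day 2 it was 2.67, at day 5 it was 2.40 and at day 30 it was 2.00. The day 30 level of this gene was thus below its level before irradiation too. Over the 23 genes the median difference from before irradiation was 0.37 at day 2 and 0.08 at day 30. The list as a whole was therefore not below that level.

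Genes of the cell cycle had a median difference of 0.22 log2 units over 22 genes, 17 of them above 0. CDK1, the kinase that drives entry into mitosis, was higher in all 5 pairs by 0.64 (SE 0.15) at p under 0.005. RRM2, a subunit of ribonucleotide reductase, had a value of 1.14 (SE 0.35) without passing. The median changed sign to -0.06 after normexp background correction, so no direction is given for the list. Ribosomal protein genes had values above 0 for 33 of 35, with a median of 0.23 (SD over pairs 0.16); 6 were higher in all 5 pairs and none passed p under 0.005.

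**Figure D5:**
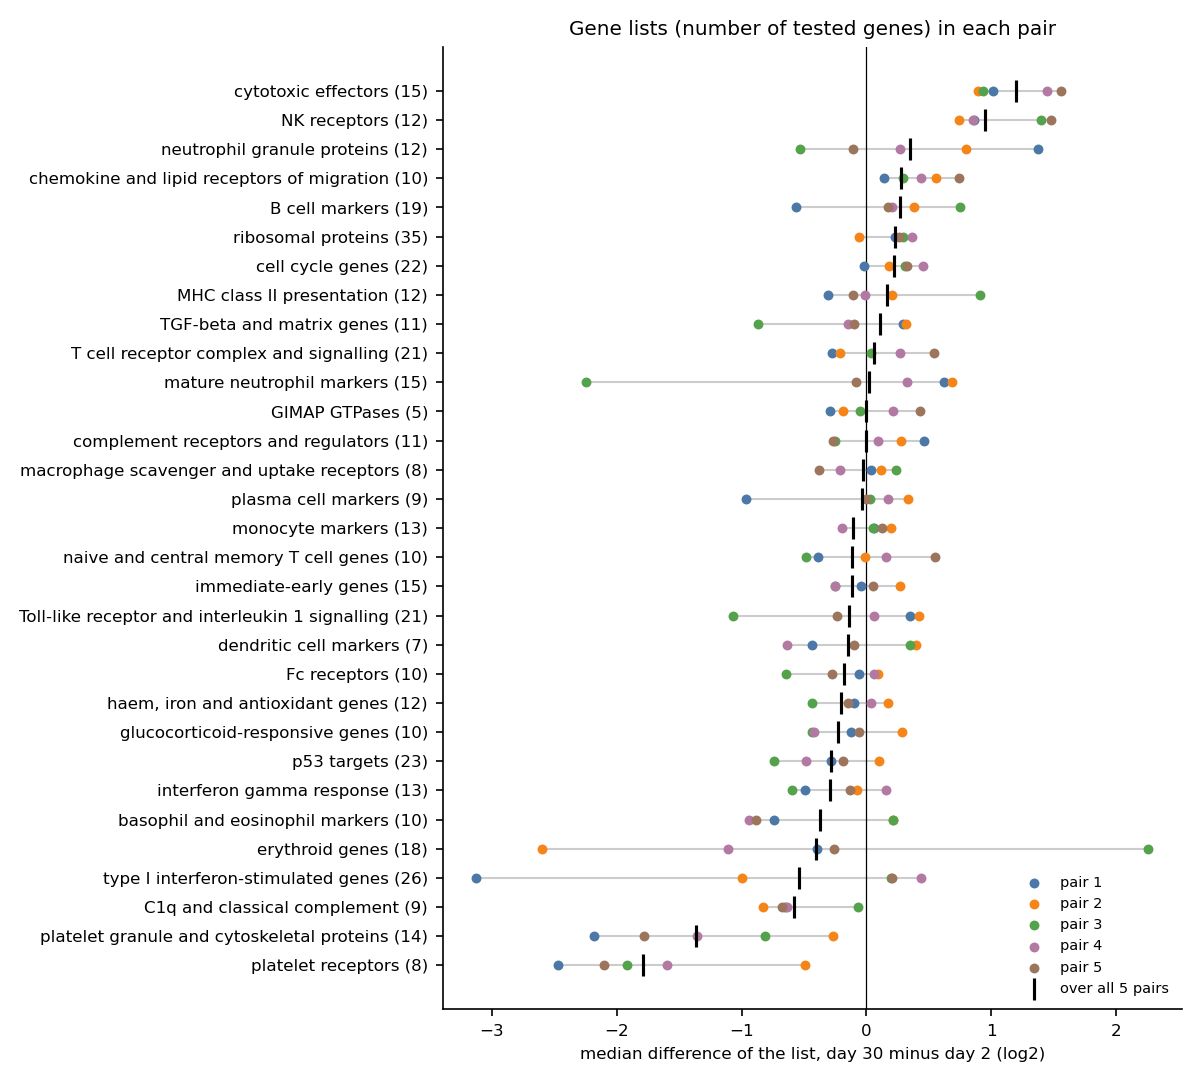
The median difference, day 30 minus day 2 (log2 units), is plotted for each pair and each of the 31 gene lists, with a tick for the value over all pairs. Cytotoxic and NK lists lie right of 0 and both platelet lists left of 0 in all 5 pairs, while interferon, neutrophil and erythroid lists spread widely.

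Several groups varied more between pairs than between days. The 26 interferon-stimulated genes of type I interferon had medians of -3.12, -1.0, 0.20, 0.44 and 0.21 in pairs 1 to 5. ISG15, a ubiquitin-like protein of the antiviral response, read 8.17, 4.48, 2.58, 0.05 and 2.95 at day 2 and 2.06, 2.03, 3.67, 0.67 and 3.07 at day 30. Its day 2 array of replicate 1 stood far above all others. Without replicate 1 the median of the list was 0.04 in place of -0.54, and none of the 26 genes passed p under 0.005 over all pairs. The interferon gamma list had a median of -0.29 over 13 genes (SD over pairs 0.31).

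The medians of 15 mature neutrophil genes lay near 0 (0.02), with -2.24 in pair 3. The calgranulin genes S100A8 and S100A12 had values of 0.87 (SE 0.46) and 1.0 (SE 0.79). Neutrophil granule genes, which are transcribed in precursors, had a median of 0.35 over 12 genes (SD over pairs 0.75), with LTF, which encodes lactoferrin, at 1.25 (SE 0.54). Summed mature neutrophil signal ranged from 8.41 to 10.1 log2 units at day 2 and from 8.59 to 10.6 at day 30. Erythroid genes had medians of -0.39, -2.60, 2.26, -1.11 and -0.26 in the 5 pairs, and globin transcripts had been depleted from the RNA before labelling. Of 21 Toll-like receptor and interleukin 1 family genes, IL18, a cytokine that activates NK and T cells, was higher at p under 0.005 by 1.07 log2 units, and it was well above background on 2 of 5 day 2 arrays.

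In the other lists no gene passed p under 0.005. Their medians were -0.18 for Fc receptors, -0.15 for dendritic cell genes, -0.37 for basophil and eosinophil genes, 0.17 for MHC class II genes, -0.12 for immediate-early genes, -0.23 for glucocorticoid-responsive genes, -0.21 for haem and iron genes and 0.11 for TGF-beta pathway genes. The medians of the MHC class II, immediate-early, haem and TGF-beta lists changed sign in at least 1 alternative setting, so no direction is given for them. The same holds for the monocyte, naive T cell, T cell receptor, neutrophil, neutrophil granule, plasma cell, scavenger, complement receptor, GIMAP, interleukin 1 and erythroid medians given above. TIMP1 and TGFB1, of the last list, were lower in all 5 pairs with values of -0.72 (SE 0.20) and -0.59 (SE 0.17).

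Because the slide was a second grouping of the arrays, the same differences were taken within slides, where the 2 arrays often come from different replicate numbers. The probes of KLRC4, KLRC1, CXCR6, GZMK and KLRB1 and the brighter KLRD1 probe were higher at day 30 on 5 of 5 slides. C1QA and C1QB were lower on 5 of 5. SPATA9 and the second KLRD1 probe were higher on 4 of 5. In all of these but C1QA, SPATA9 and the second KLRD1 probe the groups did not overlap. Any joining of the same arrays then gives 5 of 5, so for those probes the slides are no separate check. Pair 3 lies on 1 slide, so its difference is the same in both groupings. The list medians ranged from 0.64 to 1.99 for cytotoxic genes, from 0.10 to 1.70 for NK receptors, from -2.84 to -0.55 for platelet receptors, from -2.08 to -0.50 for platelet granule genes and from -0.74 to -0.01 for p53 targets. Each of these lists thus had 1 direction on all 5 slides. These are the same arrays joined in another way, so for the lists too the slides are no separate check. For p53 targets the value of -0.01, on slide 2, is close to 0, and pair 2 had a median of 0.10.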

How the data were processed

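Total RNA from PAXgene-stabilised whole blood, depleted of globin transcripts, was labelled with Cy3 and hybridised by the authors to 1-colour Agilent Whole Human Genome 4X44K v2 arrays. The deposited scanner files hold spot intensities after the background subtraction of Agilent Feature Extraction (version 12.0.2.2 per the file headers, 10.7 per the submitters' processing notes). The deposited value table holds log2 values on 5885 probes, equal within 0.001 to log2 processed signal plus a constant; the authors' own filter made it, and it served as an alternative only.

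From the scanner files, log2 processed signal minus each array's 75th percentile was taken. Control spots and spots marked as outliers were left out, spots of a probe were averaged, and probes well above background on at least 5 of 20 arrays with at least 4 complete pairs were kept (19961 probes; 19949 had 5 pairs). Day 30 and day 2 were compared with limma 3.58.1 (R 4.3.3; lmFit and eBayes) with the replicate number as a block, since class comparisons were paired by animal in the study; that the number marks the animal is assumed, not labelled, and p-values were adjusted by Benjamini-Hochberg over all probes. Deviations of same-numbered arrays correlated at 0.485, 0.343, -0.162, 0.223 and 0.352 in pairs 1 to 5, where pair 3 shares a slide. Between different numbers the correlations ranged from -0.491 to 0.425. The highest of these was day 2 replicate 2 with day 30 replicate 3. The correlations do not by themselves show that a number marks an animal. The alternative without the replicate block called 5 probes higher and 0 lower.

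Text names every called probe and up to 5 genes of each of 31 lists. It also names the 15 largest differences per direction among genes at p under 0.005 with values in 5 pairs. These had to carry a gene symbol and go 1 direction in all 5 pairs, so their agreement over pairs was a condition, not a result. Further members complete a count and were named after their values were seen. The comparison and the lists were chosen with earlier results of these data known. Of 501 list entries 436 were tested, 57 were too dim and 8 had no probe; 1 probe, the brightest, stood for a gene. The number of arrays limits the precision. The alternatives changed background correction, scaling, filter, outlier spots, the value table, blocking, arrays in the fit, test and each replicate. Some items are not reported here.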

Additional observations from a re-analysis of the deposited data

Results flagged for a closer look

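Of 97 groups of 5 values checked, 9 held 1 value far from the others by Dixon's criterion, which chance gives in about 1 group of 20. The array at day 30 of replicate 4 stood above the other 4 in KLRC4 (1.32, others 0.47 to 0.67), NUAK1 (-0.22, others -2.80 to -2.31), GZMB (7.05, others 6.08 to 6.33) and C1QC (-4.16, others -6.28 to -5.77), in log2 signal. None of the 5 C1QC values was well above background, so that gap is not a measured difference. At day 30, replicate 1 stood below the others in GZMA (-1.39, others 0.05 to 0.63). At day 30, replicate 3 stood below the others in TSPAN9 (-4.93, others -2.74 to -2.01).

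Pair 3 differed from the other pairs in the median of the C1q and classical pathway list, -0.07 against -0.83 to -0.63 log2 units. That median does not describe the called C1q chains, since C1QB and C1QA differed by -2.82 and -2.92 in pair 3. Pair 3 also differed in the median of mature neutrophil genes, -2.24 against -0.09 to 0.68. Pair 1 differed in the plasma cell list, -0.96 against -0.00 to 0.34.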

How the results depend on the processing

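The 10 called probes remained at p under 0.005 when any 1 replicate was left out, without the block and with slides as the block, and 6 of the 10 did after normexp. Whether they passed the FDR limit depended on the setting: all had an FDR of 0.0906. With 1 replicate left out, 0 to 19 probes were called higher and 0 to 48 lower, the highest counts coming without replicate 2 and the others being 0, and 71 to 116 and 78 to 460 were at p under 0.005, most without replicate 3. Without the replicate block, 5 were called higher and 0 lower, 3 of them among the 10. With slide and replicate block together, counts were 0 and 0 called and 30 and 68 at p under 0.005. That fit had fewer residual degrees of freedom than the reported one. With slide alone the counts were 0, 0, 44 and 111. A fit over all 20 arrays called 48 and 117, with 288 lower at p under 0.005. Normexp gave 5 and 1 called and 76 lower, and turned CHN1 to -0.08. With no filter, or at an FDR of 5%, calls were 0 and 0. Probes well above background on all 20 arrays gave 18 and 8, and the deposited log2 values 24 and 41, with 37 and 96 at p under 0.005. A plain paired test of each probe called 1 and 0, and put 180 higher at p under 0.005. Quantile and median scaling each called 11 and 2, the original 10 among them. Causes of these shifts were not tested. The cytotoxic list median ranged from 0.82 to 1.24 over 17 settings, that of NK receptors from 0.14 to 1.04, of platelet receptors from -2.05 to -0.95, of platelet granule genes from -1.60 to -0.83, of the C1q list from -1.51 to -0.29 and of p53 targets from -0.39 to -0.16. Of these 17 settings, those that left out the filter, changed the block or fitted all 20 arrays cannot move such a median. The ranges therefore come from the other settings. At a median signal near 2 times background, dim probes such as SPATA9 and KLRC1 are measured least firmly.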
